A study of Rattus norvegicus with 6 samples.

Results

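The genes described here are the enzymes that oxidise alcohols, aldehydes and foreign or endogenous lipids: alcohol dehydrogenases (Adh), aldehyde dehydrogenases (Aldh), cytochromes P450 (Cyp), and the single genes Por, Acss2 and Cat. They were chosen by gene symbol alone, as every probe of the rat array whose symbol belongs to one of these families. This gave 113 probes of 77 genes among the 12589 named genes tested, with 4 Adh genes on 5 probes, 13 Aldh genes on 20 probes, 57 Cyp genes on 85 probes and the 3 single genes on 3 probes. All 113 probes had a value in every column. Among the genes looked for by name, Adh5, Adh6, Aldh1b1, Cyp27b1, Cyp11a1 and Acss1 had no probe.

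The animals were Sprague-Dawley rats, 4-week-old weanlings when they were put on a Lieber and DeCarli liquid diet for 4 weeks. Group C received the ethanol diet and then a closed fracture of the pinned bone shaft, group A the pair-fed diet and the same fracture, group D the ethanol diet without fracture, and group B the pair-fed diet without fracture. Right hind-limb tissue, labelled fracture callus or non-fracture callus, was taken 3 days later, in the inflammatory stage of healing. The labels do not say whether unfractured limbs were pinned, whether animals were pooled or which sex was used. Each group had 3 numbered samples, and every sample was hybridised against 1 sample of another group, which gave 6 pairings, each with a dye swap. The study's stated interest was C against A.

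Ethanol is oxidised to acetaldehyde by alcohol dehydrogenase in the cytosol, by Cyp2e1 in the endoplasmic reticulum and by catalase (Cat) in peroxisomes. Aldh2 in mitochondria then turns acetaldehyde into acetate, which Acss2 and its relatives join to coenzyme A. The liver carries most of this work, and Cyp2e1 protein is known to be stabilised by ethanol there. The same enzyme families make and break signalling lipids that matter in bone: Aldh1a enzymes make retinoic acid, Cyp26 enzymes destroy it, Cyp2r1 and Cyp24a1 activate and inactivate vitamin D, and Cyp19a1 makes oestrogen.

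The deposited values are log ratios, and neither their base nor their numerator is stated. The group that a column names first was taken as the numerator, and ratios are written here so that C/A is the log ratio of C over A. They carry no level of any gene in any group. A fitted difference is the value of a linear model over all 6 pairings. Between 2 groups it gives weight 0.5 to the direct pairing and 0.25 to each of the 4 indirect ones. For the interaction, C/A and C/D have weight 0.5, D/B and A/B weight -0.5, and the others 0. The standard error is given after ±. The 5 comparisons share groups and pairings and so are not independent of one another. The p-values are limma's, adjusted by Benjamini-Hochberg over all 23549 rows, and measure the spread between these samples, which may be technical, since no label says that numbered samples come from separate rats. The direction of at least 1 column is in doubt. The A/C and A/D columns share group A, yet correlated at -0.62 over all 23549 rows and at -0.51 over the 77 member genes. Results are therefore also given with the A/D column turned. The correlation does not tell which column, if any, is reversed, and no fit was made with the A/C column turned. The interaction, which gives no weight to A/D, has the same value with A/D as titled or turned. In the deposited pieces of limb, fewer cells of a type and less RNA per cell cannot be told apart.

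None of the 77 genes passed an adjusted p of 0.05 in limma in any of the 5 comparisons. For alcohol after fracture (C minus A), the share of all rows called was 0.0%, and 1 member passed at an unadjusted p under 0.05, against 11.5% of all rows. For alcohol without fracture (D minus B), 0.0% of all rows were called, and 1 member passed unadjusted against 3.48% of rows. For fracture in alcohol-fed rats (C minus D), 4.24% of all rows were called, or 999 rows, and 7 of the 77 members (9.09%) passed unadjusted against 18.9% of rows. For fracture in pair-fed rats (A minus B), 0.0% of all rows were called, and 0 members passed unadjusted against 1.9% of rows. For the interaction of diet and fracture, 0.0% of rows were called, and 3 members (3.90%) passed unadjusted against 10.6% of rows. With each gene's own variance in place of the moderated one, 0 members were called in all 5 comparisons. That setting called hardly any row: 0.0170% in C minus A, 0.0085% in C minus D and in the interaction, and 0.0% in the others. Turning the A/D column called 1.85% of all rows in C minus A, 0.0% in the other 4 comparisons and 0 members in any. Then 6 members passed unadjusted in C minus A against 20.3% of rows, 4 in D minus B against 6.72%, 6 in C minus D against 17.8%, 2 in A minus B against 2.88% and 6 in the interaction against 12.0%.

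The members' fitted differences were centred near 0 in every comparison and had a smaller standard deviation than those of all rows. The median member difference was 0.01 in C minus A, against 0.02 over all rows, and 0.00 in C minus D, against 0.02. The standard deviation over genes was 0.20 for the members and 0.35 for all rows in C minus A, and 0.27 and 0.46 in C minus D. In C minus A, 76 of 77 members lay within 0.5 log units of 0, and in C minus D 69 did. For the direct C/A pairing the shares within 0.5 were 92.2% of members and 79.7% of all rows. In C/D they were 89.6% and 72.6%. The spread left over after the fit, which is the disagreement of a gene's own 6 pairings, was also smaller in the members, with a median residual SD of 0.197 against 0.253 over all rows. As titled it was lowest for Cyp1b1, at 0.0662, and highest for Cyp11b2, at 0.716; with A/D turned it was lowest for Cyp51, at 0.0194, and highest for Cyp2r1, at 0.639. The members were averaged over more probes per row, with 113 probes for 77 genes against 26481 probes for 23549 rows. The part of this averaging in the narrower spreads was not tested. With no level in the files, whether narrow ratios went with dim probes was not tested.

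**Figure D1:**
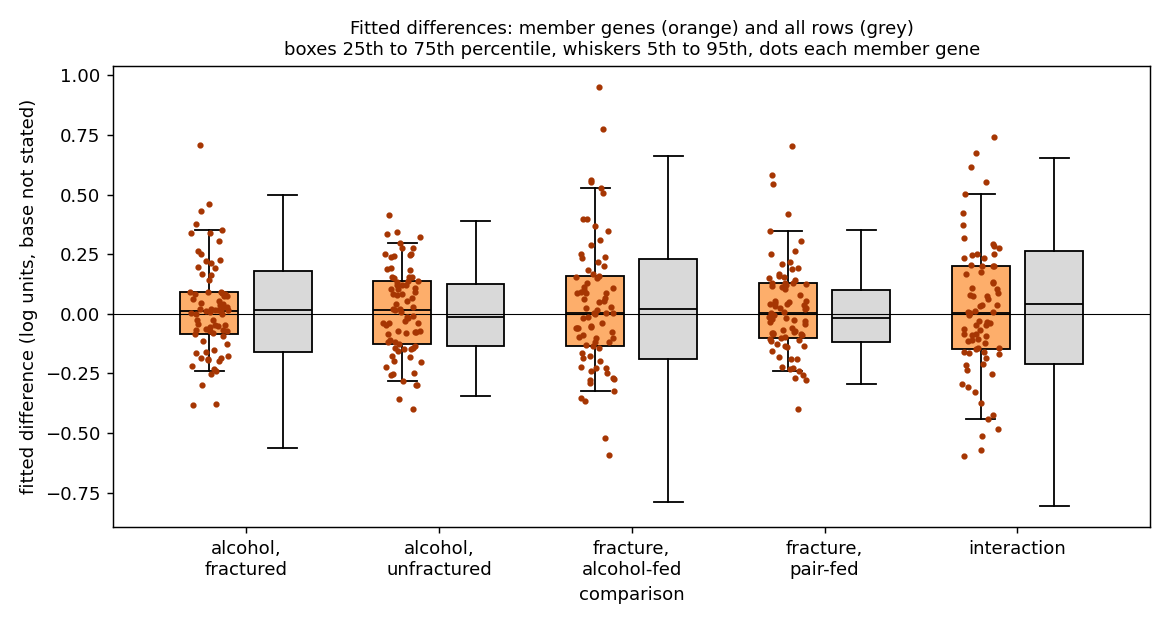
Fitted differences (vertical axis, log units) in the 5 comparisons, for the 77 member genes in orange, each also a dot, and for all 23549 rows in grey. Boxes span the 25th to 75th percentile and whiskers the 5th to 95th; the member boxes sit around 0 in each comparison and are narrower than the grey ones in C minus A, C minus D and the interaction.

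The promoters of 4 genes are shown: Adh1c and Cyp2e1, a cytosolic and a microsomal ethanol oxidiser, and Aldh1a2 and Cyp2c22, the genes with single probes that passed the test. Each is the 250 bases before the RefSeq start site on the GRCr8 assembly, read 5′ to 3′ on the gene's strand, namely chr2:229470453-229470702 (+) for Adh1c, chr1:205269717-205269966 (+) for Cyp2e1, chr8:80758391-80758640 (+) for Aldh1a2 and chr1:248980768-248981017 (-) for Cyp2c22. Capitals mark matches, on either strand, to 5 short motifs, and no marked matches overlap. The first is the TATA box, searched as TATAAA. The next is the box written CCAAT, found upstream of many genes, and a further one is the GC box, searched as GGGCGG. The core of the xenobiotic response element was searched as GCGTG, and the half-site bound by many nuclear receptors as AGGTCA.
Adh1c: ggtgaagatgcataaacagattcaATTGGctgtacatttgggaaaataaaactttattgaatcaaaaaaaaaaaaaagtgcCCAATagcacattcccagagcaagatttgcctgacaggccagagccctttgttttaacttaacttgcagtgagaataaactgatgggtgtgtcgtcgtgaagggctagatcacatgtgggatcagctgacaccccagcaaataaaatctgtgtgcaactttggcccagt
Cyp2e1: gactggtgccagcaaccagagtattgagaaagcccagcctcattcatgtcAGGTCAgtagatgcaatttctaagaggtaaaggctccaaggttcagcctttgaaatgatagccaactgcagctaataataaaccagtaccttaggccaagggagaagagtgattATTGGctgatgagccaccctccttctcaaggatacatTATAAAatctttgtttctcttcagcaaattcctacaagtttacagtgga
Aldh1a2: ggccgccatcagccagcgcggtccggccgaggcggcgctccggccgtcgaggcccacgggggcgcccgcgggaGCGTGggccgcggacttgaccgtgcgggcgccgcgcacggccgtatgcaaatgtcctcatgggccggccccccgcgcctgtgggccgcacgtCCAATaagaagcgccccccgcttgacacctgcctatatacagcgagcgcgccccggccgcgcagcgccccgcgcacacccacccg
Cyp2c22: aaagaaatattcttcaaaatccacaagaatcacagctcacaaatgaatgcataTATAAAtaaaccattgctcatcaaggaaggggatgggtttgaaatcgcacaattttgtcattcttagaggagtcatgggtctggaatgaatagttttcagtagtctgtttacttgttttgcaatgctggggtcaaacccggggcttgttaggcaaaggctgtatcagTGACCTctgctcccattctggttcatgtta

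The Aldh1a2 window was the richest in G and C, at 77.2%, against 41.2% for Adh1c, 42.8% for Cyp2e1 and 40.0% for Cyp2c22. Windows of this length were at hand for 65 of the 77 members and for 27457 rat genes in all. TATAAA was in 23.1% of the members' windows and in 13.1% of all, CCAAT in 55.4% and 34.3%, AGGTCA in 29.2% and 13.7%, GGGCGG in 35.4% and 32.4%, and GCGTG in 32.3% and 27.2%. These are matches of letters, given as a description.

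The 4 measured alcohol dehydrogenases are neighbours in 1 cluster of 6 Adh genes on rat chromosome 2, in the order Adh7, Adh1c, Adh6a, Adh6, Adh4 and Adh5. They did not share a direction. Adh1c, the class I enzyme that takes up most ethanol in liver and was annotated on the array as Adh1, had log ratios of 0.54 (C/A), -0.14 (D/B), -0.16 (C/D), 0.65 (A/B), -0.15 (C/B) and 0.01 (A/D). Both high values came from pairings with group A, and they disagreed with the indirect paths: the fitted difference was 0.03 ± 0.27 in C minus A (95% interval -0.62 to 0.68), where the direct pairing alone gave 0.54. Adh4, a class II enzyme that also oxidises retinol, had 0.14 (C/A), -0.34 (D/B), 0.37 (C/D), -0.50 (A/B), 0.36 (C/B) and 0.01 (A/D). All 3 pairings with group C on top were positive and those of D/B and A/B negative. Its fitted difference was 0.38 ± 0.18 in C minus A, -0.30 ± 0.18 in D minus B and 0.68 ± 0.25 for the interaction (unadjusted p = 0.0327, adjusted p = 0.405). The 2 Adh4 probes disagreed within pairings, with 0.69 and -0.41 in C/A and 0.61 and -0.59 in A/D.

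Adh7, the class IV retinol and ethanol dehydrogenase of stomach and skin, had log ratios of -0.08 (C/A), -0.24 (D/B), -0.53 (C/D), -0.12 (A/B), -0.60 (C/B) and 0.04 (A/D). As the ratios are written here, 5 of the 6 were below 0. The fitted differences were -0.30 ± 0.16 in C minus A and -0.37 ± 0.16 in C minus D (unadjusted p = 0.062, not called). Adh6a had -0.19 (C/A), 0.15 (D/B), 0.04 (C/D), 0.12 (A/B), -0.27 (C/B) and -0.44 (A/D), with a fitted difference of -0.07 ± 0.19 in C minus A. Turning the A/D column made that value -0.29.

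Aldh2, the mitochondrial enzyme that clears acetaldehyde, had log ratios of -0.01 (C/A), 0.38 (D/B), -0.03 (C/D), -0.10 (A/B), -0.65 (C/B) and 0.18 (A/D). The direct C/A and C/D pairings were near 0, and C/B stood apart as the lowest. Its fitted difference was -0.20 ± 0.23 in C minus A, with a 95% interval of -0.74 to 0.34, and -0.04 ± 0.23 in D minus B. Catalase had 0.17 (C/A), -0.67 (D/B), 0.04 (C/D), -0.23 (A/B), 0.68 (C/B) and 0.51 (A/D). The D/B and C/B pairings both set an alcohol-fed group against group B and had opposite signs, and the residual SD of 0.471 was well above the members' median. The fitted difference of Cat was 0.20 ± 0.26 in C minus A and 0.53 ± 0.26 in C minus D (adjusted p = 0.341).

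Acss2, which makes acetyl-CoA from acetate, had log ratios of 0.50 (C/A), 0.16 (D/B), 0.11 (C/D), 0.04 (A/B), 0.37 (C/B) and 0.08 (A/D). All were above 0 as titled, and with A/D turned that value would be below 0. The fitted difference was 0.34 ± 0.15 in C minus A (unadjusted p = 0.0676, adjusted p = 0.486) and 0.14 ± 0.15 in D minus B. Por, the reductase that passes electrons to microsomal P450s, had -0.34 (C/A), 0.09 (D/B), -0.04 (C/D), -0.14 (A/B), -0.30 (C/B) and 0.08 (A/D). The 2 lowest values of Por were those of C against a pair-fed group, and its fitted difference was -0.24 ± 0.15 in C minus A (adjusted p = 0.636).

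**Figure D2:**
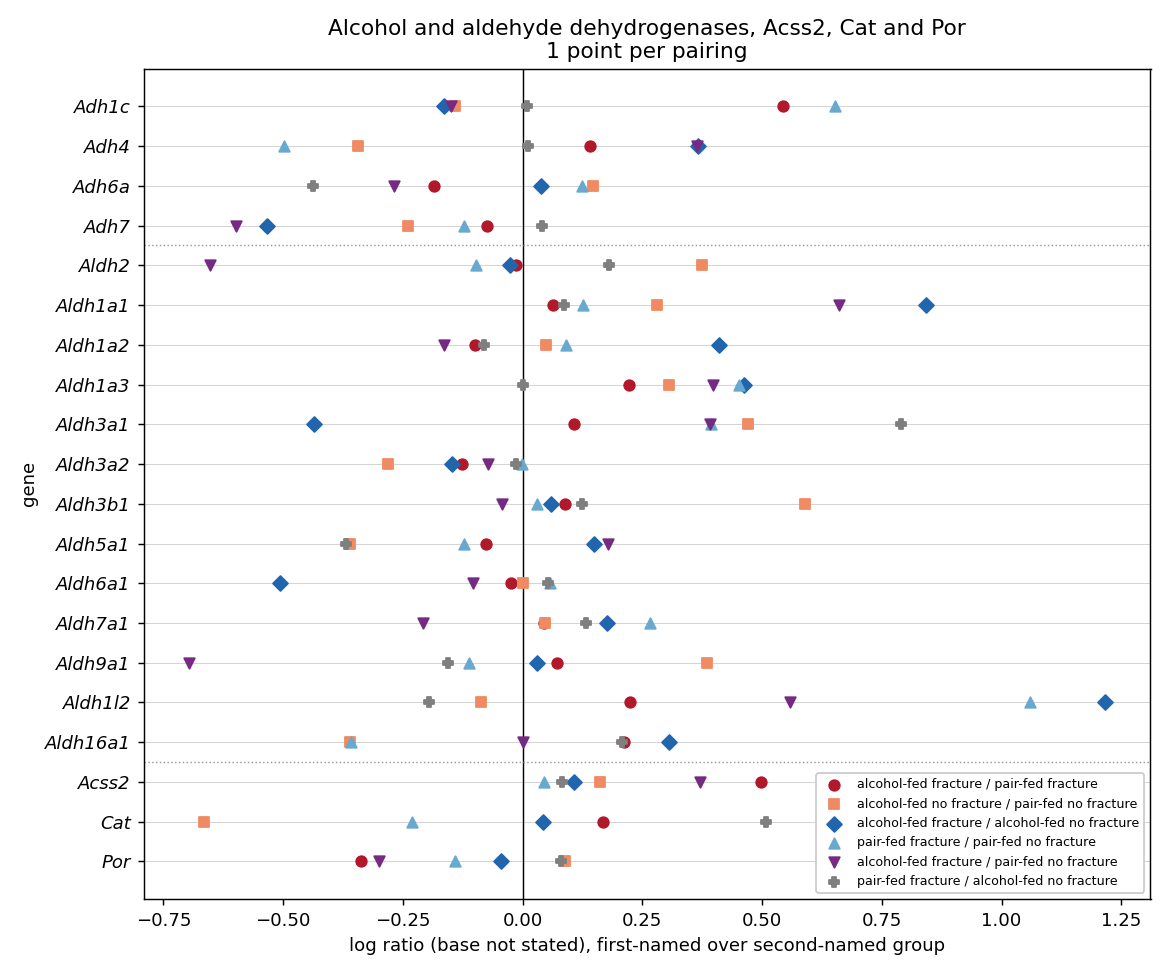
Log ratios (horizontal axis, base not stated) of the 4 Adh genes, the 13 Aldh genes and Acss2, Cat and Por, with 1 point for each of the 6 pairings and probes of a gene averaged. Most points lie within 0.5 of 0. Aldh1l2 reaches 1.22 in C/D and 1.06 in A/B, and Acss2 lies above 0 in all 6 pairings as titled.

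The 3 Aldh1a enzymes, which oxidise retinal to retinoic acid, had positive fitted differences in C minus A, C minus D and A minus B, with medians of 0.21, 0.31 and 0.30. Aldh1a1 had log ratios of 0.06 (C/A), 0.28 (D/B), 0.84 (C/D), 0.13 (A/B), 0.66 (C/B) and 0.09 (A/D), with the high values in the pairings of alcohol-fed fracture with either unfractured group. Its fitted difference in C minus D was 0.55 ± 0.19 (unadjusted p = 0.0244, adjusted p = 0.182), and 0.51 with the A/D column turned. Aldh1a3 had 0.22 (C/A), 0.30 (D/B), 0.46 (C/D), 0.45 (A/B), 0.40 (C/B) and 0.00 (A/D), and a fitted difference of 0.31 ± 0.15 in C minus D and 0.35 ± 0.15 in A minus B. Aldh1a2, the main retinoic acid maker of the mammalian embryo, averaged over its probes to 0.11 ± 0.18 in C minus D.

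The probes behind these means did not agree, and 2 of the 3 Aldh1a2 probes passed the test in opposite directions. When every probe was fitted as a row of its own, 4.62% of all 26481 probes were called in C minus D, and 3 of the 113 member probes (2.65%) were: 2 of Aldh1a2 and 1 of Cyp2c22. The first Aldh1a2 probe (Rn30014647) had log ratios of 0.81 (C/A), -0.44 (D/B), 1.77 (C/D), 0.06 (A/B), 0.62 (C/B) and 0.32 (A/D). The second (Rn30014649) had -1.01 (C/A), 0.34 (D/B), -0.80 (C/D), 0.26 (A/B), -0.87 (C/B) and -0.29 (A/D). The probes lay on opposite sides of 0 in every pairing except A/B. The first rose by 1.43 ± 0.20 in C minus D (limma adjusted p = 0.0273) and the second fell by 1.03 ± 0.17 (limma adjusted p = 0.0308). The remaining probe (Rn30014650) lay between -0.27 and 0.26 in all pairings and fitted at -0.08 ± 0.19.

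Cyp2c22, a member of the subfamily that handles drugs and fatty acids in rat liver, had 1 probe (Rn30020263) that fell by 1.12 ± 0.21 in C minus D (limma adjusted p = 0.0377). That probe had log ratios of -1.06 (C/A), -0.01 (D/B), -1.11 (C/D), 0.01 (A/B), -0.57 (C/B) and -0.64 (A/D). Its low values were those of group C over each other group and of A over D. The other Cyp2c22 probe (Rn30020262) was between -0.27 and 0.23 throughout and fitted at 0.08 ± 0.19 in C minus D.

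These 3 calls did not all hold when single pairings were left out or when the A/D column was turned. Leaving out A/B, which has weight 0 in C minus D, kept the fitted values at 1.43, -1.03 and -1.12. Their standard errors rose to 0.23, 0.20 and 0.24. Without the A/B pairing 0 member probes were called in C minus D (0.0% of all probes), without A/C 4 were (4.68%), without A/D 0 (0.0%), without B/C 2 (3.26%), without B/D 2 (4.09%) and without C/D 0 (0.0%). Unadjusted, 9, 11, 12, 11, 10 and 10 member probes passed in that order, against 14.5%, 20.5%, 17.3%, 16.5%, 18.9% and 11.6% of all probes. With A/D turned, 0 were called in C minus D (0.0% of all probes; 11 unadjusted, against 17.8%), where the adjusted p-values of the 3 probes became 0.106, 0.0831 and 0.144, and 1 was called in C minus A, the second Aldh1a2 probe at -1.06 ± 0.15 (limma adjusted p = 0.0328). There 1.95% of all probes were called, and 12 member probes passed unadjusted against 20.1%. In the other 4 comparisons with the columns as titled, 0 member probes were called, with 3, 3, 2 and 6 at an unadjusted p under 0.05 in C minus A, D minus B, A minus B and the interaction, against 11.5%, 3.49%, 1.83% and 10.6% of all probes.

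**Figure D3:**
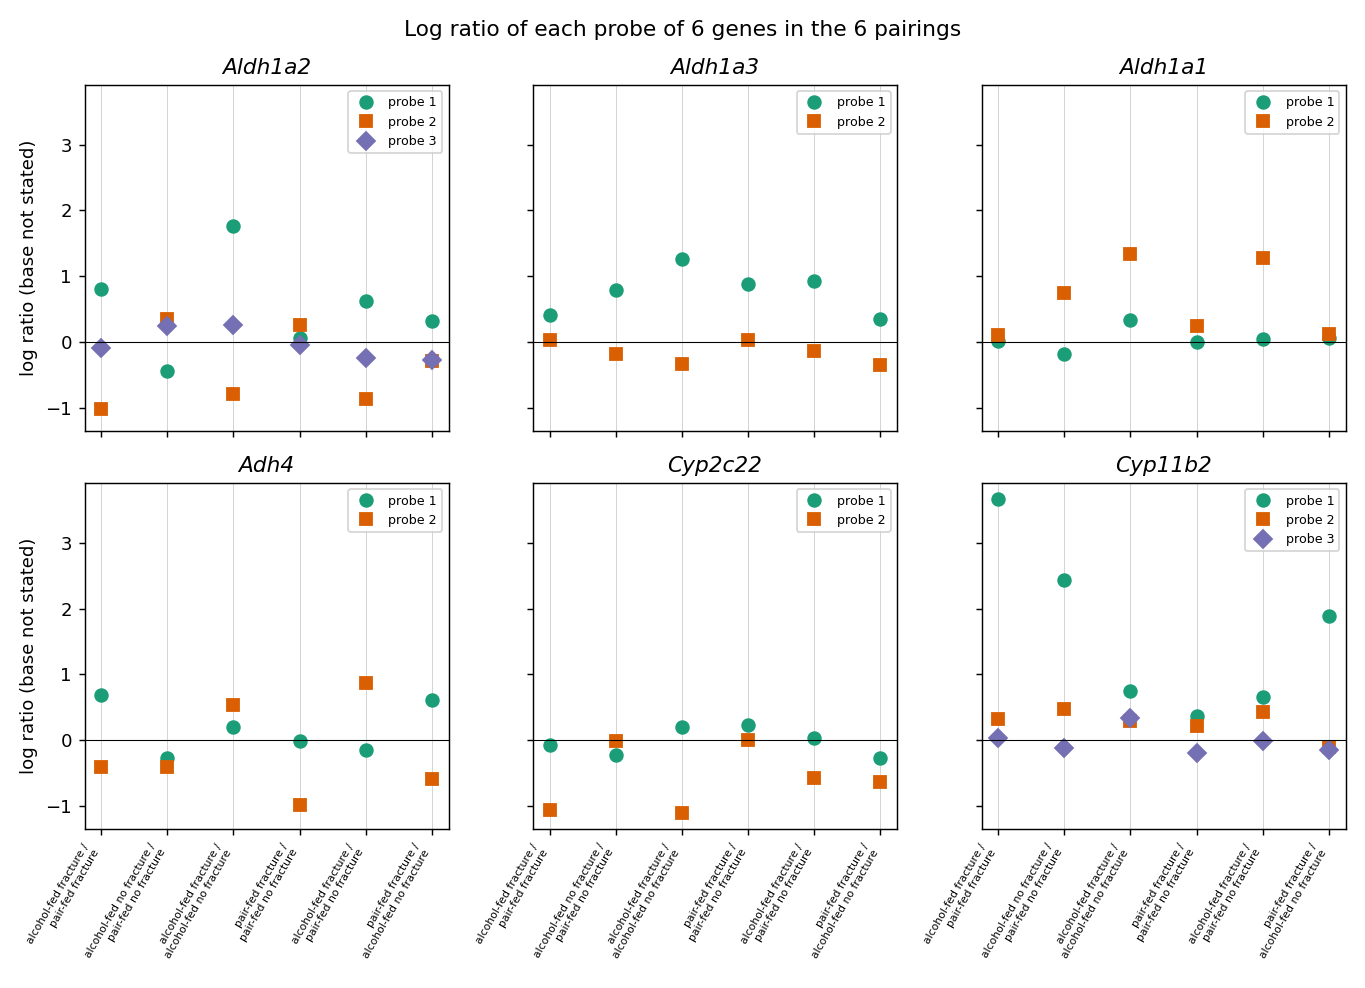
Log ratio (vertical axis, base not stated) of each probe of Aldh1a2, Aldh1a3, Aldh1a1, Adh4, Cyp2c22 and Cyp11b2 in the 6 pairings. Probes 1 and 2 of Aldh1a2 lie on opposite sides of 0 in every pairing except A/B, and probe 1 of Cyp11b2 reaches 3.67 in C/A while its other probes stay within 0.5 of 0.

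The pairs of Aldh1a1 and Aldh1a3 probes also differed. In C/D the Aldh1a1 probes read 0.34 and 1.34 and the Aldh1a3 probes 1.26 and -0.34. Among the 30 members with several probes, 11 had probes of opposite sign and more than 0.5 apart in the fitted value of at least 1 comparison, and the median SD between the probes of a gene was 0.248. Which transcript or exon each probe reads is not given in the tables used here.

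Of the other aldehyde dehydrogenases, Aldh16a1 and Aldh1l2 had the smallest p-values as titled, and Aldh3a1 with A/D turned. Aldh16a1, whose mammalian form lacks the catalytic cysteine, had log ratios of 0.21 (C/A), -0.36 (D/B), 0.31 (C/D), -0.36 (A/B), -0.00 (C/B) and 0.21 (A/D). Alcohol-fed fracture was the higher group against A and D, and group B the higher against A and D. Its residual SD was 0.0812, and its 2 probes fitted with the same sign, at 0.42 and 0.27 in C minus D. The fitted difference was 0.22 ± 0.14 in C minus A, -0.40 ± 0.14 in D minus B (unadjusted p = 0.0267, adjusted p = 0.999), 0.35 ± 0.14 in C minus D (unadjusted p = 0.0442) and 0.62 ± 0.20 for the interaction (unadjusted p = 0.0183, adjusted p = 0.320).

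Aldh1l2, the mitochondrial enzyme that oxidises 10-formyltetrahydrofolate, had 0.22 (C/A), -0.09 (D/B), 1.22 (C/D), 1.06 (A/B), 0.56 (C/B) and -0.20 (A/D). The high values came from C/D, A/B and C/B, which each set a fractured group over an unfractured one. A/D, of the same kind, was slightly negative as titled. Its fitted difference was 0.78 ± 0.31 in C minus D (adjusted p = 0.239) and 0.54 ± 0.31 in A minus B, and 0.87 and 0.64 with A/D turned. Aldh3a1, an enzyme of cornea and of xenobiotic response, had 0.11 (C/A), 0.47 (D/B), -0.44 (C/D), 0.39 (A/B), 0.39 (C/B) and 0.79 (A/D), and its fit turned on the last of these: D minus B was 0.34 ± 0.26 as titled and 0.74 ± 0.17 turned. Aldh3a2, the fatty aldehyde dehydrogenase, stayed between -0.28 and 0.00 in all 6 pairings. The other 5 Aldh genes, among them Aldh6a1 of valine breakdown at -0.19 ± 0.16, had fitted differences between -0.19 and 0.17 in C minus A.

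Among the P450s that handle foreign compounds, Cyp2e1, the ethanol-oxidising form, had log ratios of 0.15 (C/A), 0.02 (D/B), -0.19 (C/D), 0.16 (A/B), 0.20 (C/B) and 0.11 (A/D). All 6 values lay between -0.19 and 0.20. The fitted difference was 0.01 ± 0.16 in C minus A, with a 95% interval of -0.37 to 0.39, and 0.12 ± 0.16 in D minus B, with an interval of -0.26 to 0.50. Differences larger than these intervals were not seen; smaller ones could not be resolved with 6 pairings. Of the 22 genes of families 1 to 3 with this role, 9 were positive and 13 negative in C minus A (median -0.07), and 8 were positive and 14 negative in C minus D (median -0.12), with none called. Cyp1a1, the main target of the aryl hydrocarbon receptor, had 0.31 (C/A), 0.14 (D/B), -0.12 (C/D), 0.26 (A/B), 0.52 (C/B) and 0.18 (A/D), and a fitted difference of 0.14 ± 0.17 in C minus A. Cyp1a2 fitted at -0.18 ± 0.15 and Cyp1b1, the form of many tissues outside the liver, at -0.13 ± 0.14 in the same comparison. The residual SD of Cyp1b1 was 0.0662 as titled and 0.129 with A/D turned. Its fitted difference was 0.30 ± 0.14 in D minus B and -0.27 ± 0.14 in C minus D. Cyp2a1 stood at -0.32 ± 0.14 in C minus D, and the female-typical rat form Cyp2c12 at -0.40 ± 0.25 in A minus B.

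Among the 15 P450s of fatty acids and eicosanoids, Cyp2j3, which makes epoxides of arachidonic acid, had the smallest p-value of all members with the columns as titled. With A/D turned, the smallest was that of Cyp51 in D minus B. The log ratios of Cyp2j3 were -0.57 (C/A), 0.21 (D/B), -0.41 (C/D), -0.04 (A/B), -0.40 (C/B) and -0.38 (A/D). Group C was the lower in each of its 3 pairings. The fitted difference was -0.38 ± 0.16 in C minus A (adjusted p = 0.439), -0.59 ± 0.16 in C minus D (95% interval -0.97 to -0.21, unadjusted p = 0.0085, adjusted p = 0.105) and -0.57 ± 0.23 for the interaction (adjusted p = 0.441). With A/D turned it was -0.57 in C minus A and -0.40 in C minus D. Cyp4f5, an omega-hydroxylase, stood at -0.44 ± 0.23 for the interaction. Cyp4x1 had the highest interaction value, 0.74, with 0.88 (C/A), -0.27 (D/B), 0.63 (C/D), 0.30 (A/B), -0.32 (C/B) and -0.07 (A/D), and is named because of that value. It was not called, and its residual SD was 0.515, against a median of 0.197 over the members. Cyp4b1 was positive in all 6 pairings as titled, from 0.11 to 0.37, and is likewise named after its values were seen. The lowest of these was A/D, and turned it would be below 0.

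The 4 P450s of steroid hormone synthesis were all positive in C minus A (median 0.37), in C minus D (median 0.33) and in the interaction (median 0.35). With A/D turned all 4 stayed positive in C minus A and C minus D. The interaction gives no weight to A/D and could not change. None was called. These are means over probes: the 2 probes of Cyp21a1, the steroid 21-hydroxylase, had opposite signs in each of these comparisons, for example 0.56 and -0.08 in C minus D, and the Cyp11b2 probes ran from -0.04 to 0.82 in the interaction. Cyp19a1, the aromatase, had log ratios of 0.27 (C/A), -0.02 (D/B), 0.65 (C/D), -0.06 (A/B), 0.17 (C/B) and -0.29 (A/D), with all pairings of group C positive. It was the 1 member past an unadjusted p of 0.05 in C minus A, at 0.43 ± 0.18 (unadjusted p = 0.0485, adjusted p = 0.429). Cyp17a1 fitted at 0.31 ± 0.16 there. Cyp11b2, the aldosterone synthase of the adrenal cortex, had the highest member value in C minus A, 0.71 ± 0.37 (adjusted p = 0.548), with 1.34 (C/A), 0.93 (D/B), 0.46 (C/D), 0.13 (A/B), 0.36 (C/B) and 0.55 (A/D). Its 3 probes fitted at 1.62, 0.31 and 0.18 in C minus A. The first (R001295_01) read 3.67 in C/A, 2.43 in D/B and 1.89 in A/D, while the others lay between -0.20 and 0.47 in all 6 pairings. The adjusted p of Cyp11b2 in C minus A was 0.0987 with A/D turned, and 0.025 when the B/C pairing was also left out, where 3.16% of all rows were called.

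The vitamin D genes were represented by Cyp2r1, the 25-hydroxylase, and Cyp24a1, which inactivates the hormone. Cyp2r1 had log ratios of 0.58 (C/A), 0.68 (D/B), 0.92 (C/D), 0.31 (A/B), 0.69 (C/B) and 1.39 (A/D), all positive as titled. Their sizes, not their signs, disagreed, since C/A and A/D would have to add up to C/D in the model. The residual SD was 0.649. The fitted difference was 0.95 ± 0.34 in C minus D (unadjusted p = 0.0267, adjusted p = 0.190) and 0.26 ± 0.34 in C minus A. With A/D turned these became 0.26 ± 0.33 and 0.96 ± 0.33. Turning the column thus exchanged the 2 values. Cyp24a1 fitted at 0.05 ± 0.16 in C minus A and 0.17 ± 0.16 in C minus D. The retinoic acid hydroxylases Cyp26a1, Cyp26b1 and Cyp26c1 lay between -0.06 and 0.02 in C minus A and between -0.06 and 0.06 in C minus D. Averaged over its probes, Cyp26c1 was below 0 in all 6 pairings as titled, but in C/D only at -0.002, from probes at -0.24 and 0.23. It stood at -0.26 ± 0.17 in both D minus B and A minus B.

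Of the 7 sterol and bile acid P450s, Cyp51, which demethylates lanosterol on the way to cholesterol, had 0.29 (C/A), 0.62 (D/B), -0.14 (C/D), 0.18 (A/B), 0.52 (C/B) and 0.44 (A/D). The lone negative pairing was the 1 between the alcohol-fed groups. The fitted difference was 0.08 ± 0.22 in C minus A and 0.41 ± 0.22 in D minus B, and 0.30 and 0.63 with A/D turned. Cyp7a1, the rate-limiting enzyme of bile acid synthesis, fitted at -0.35 ± 0.14 in C minus D (unadjusted p = 0.0461) and 0.32 ± 0.14 in D minus B. Cyp27a1 and Cyp7b1, which hydroxylate cholesterol side chains and oxysterols, stood at 0.08 ± 0.20 and -0.03 ± 0.16 in C minus A, and the brain form Cyp46a1 at 0.25 ± 0.16 in A minus B. Cyp20a1, a P450 with no agreed substrate, moved from 0.40 ± 0.19 in C minus D to 0.04 with A/D turned.

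**Figure D4:**
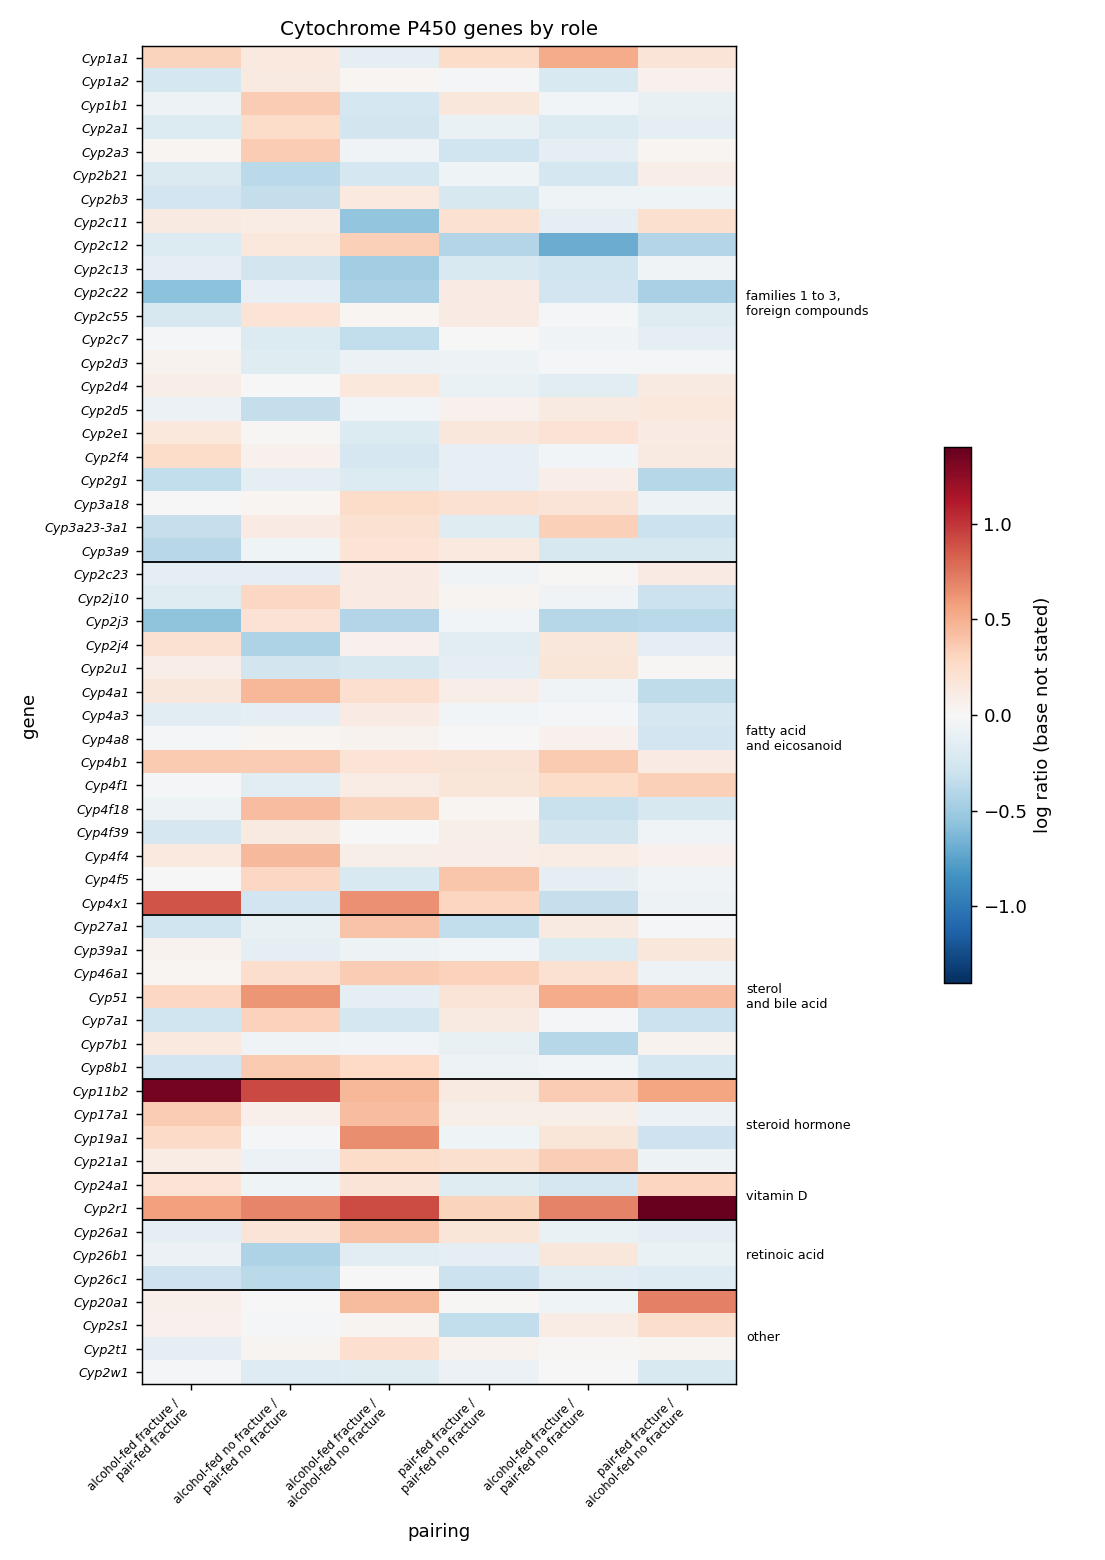
Log ratios (colour, base not stated) of the 57 Cyp genes (vertical axis, by role) in the 6 pairings (horizontal axis). Most cells are pale; Cyp11b2, Cyp2r1 and Cyp4x1 carry the darkest red cells, up to 1.39 for Cyp2r1 in A/D, and the lowest cell is Cyp2c12 at -0.69 in C/B.

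Other genes of the same pathways were described from a list of 65, of which 56 were measured. In C minus D, 0 of them rose and 5 fell, against 4.24% of all rows called. Pgrmc1, a haem-binding partner of P450s, fell by 1.34 ± 0.18 (adjusted p = 0.028). Maob, a mitochondrial monoamine oxidase, fell by 1.33 ± 0.20 (adjusted p = 0.0305). Akr7a3, an aldehyde reductase, fell by 0.89 ± 0.17 (adjusted p = 0.0436), Rxra, the shared partner of nuclear receptors that control many P450 genes, fell by 0.78 ± 0.16 (adjusted p = 0.0472), and Fmo1, a flavin monooxygenase, fell by 1.01 ± 0.21 (adjusted p = 0.0492). None of the 5 was called in C minus D with A/D turned, where they stood at -1.18, -0.97, -0.73, -0.63 and -0.71. Nor was any row called in C minus D when the A/B, A/D or C/D pairing was left out. In C minus A none of the 56 was called as titled, with 7 (12.5%) at an unadjusted p under 0.05 against 11.5% of all rows. With A/D turned Pgrmc1 was called there, at -1.36 ± 0.17 (adjusted p = 0.0262), against 1.85% of all rows. In the remaining comparisons 0 of the 56 were called, with 2 unadjusted in D minus B against 3.48% of rows, 0 in A minus B against 1.9%, and 6 (10.7%) in the interaction against 10.6%. In A minus B the smallest p-values were those of Hnf4a, a liver transcription factor, at -0.57 ± 0.25 and of Ephx1, the microsomal epoxide hydrolase, at 0.32 ± 0.16. The 9 retinoid-handling genes had a median of 0.14 in C minus D, with none called.

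Markers of muscle and of red cells had the medians farthest from 0 among the marker lists. The 5 skeletal muscle markers had a median of 1.77 in C minus D and 1.24 in C minus A. In C minus D, where 4.24% of all rows were called, 3 of them were called higher. The 4 erythroid markers had medians of -1.43 and -1.35, with 3 called lower in C minus D. Of the 5 macrophage markers, Cd14 and Lyz2 were called higher in C minus D (median 0.34), and of the 3 chondrocyte markers Matn1 was called lower (median -0.41). The 5 hepatocyte markers, the cells in which most of these enzymes are best known, had medians of 0.08 in C minus D and -0.06 in C minus A with none called. The 5 adipocyte markers had medians of 0.04 and 0.08, and the 5 osteoblast markers -0.15 and -0.16. With A/D turned no row was called in C minus D, markers included, while 1 muscle marker was called higher and 3 erythroid markers lower in C minus A, against 1.85% of all rows. As titled, no row was called in C minus D when the A/B, A/D or C/D pairing was left out. Which of these cells were present cannot be read from ratios, and their part in the members' values was not tested.

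Turning the A/D column moved the members' values without calling any. As titled, 43 of 77 members were positive in C minus A and 40 in C minus D; turned, 38 and 47 were. Turning brought the pairings into closer agreement for 49 of the 77 members (63.6%), against 59.8% of all rows. Besides Cyp2r1 and Cyp11b2, the members that it moved far included Cyp2c22, from -0.38 ± 0.19 as titled to -0.61 ± 0.15 (adjusted p = 0.0877) in C minus A.

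**Figure D5:**
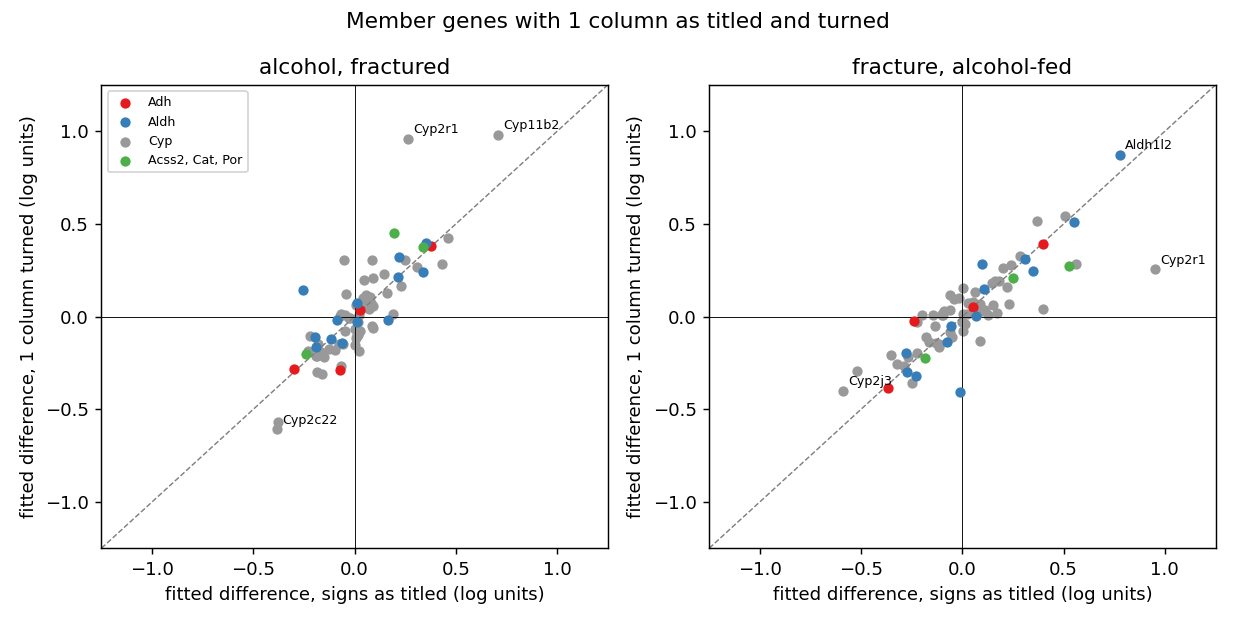
Fitted differences of the 77 member genes with the A/D column as titled (horizontal axis) and turned (vertical axis), in log units, for C minus A at left and C minus D at right. Points on the dashed line have equal values; Cyp2r1 lies farthest from it, at 0.26 as titled and 0.96 turned in C minus A and the reverse in C minus D.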

How the data were processed

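Gene expression was compared on 2-colour arrays in 6 pairings of 4 groups of rats. The authors deposited 1 log ratio per probe and pairing, used here as a score without a known base. The labels list Cy3 and Cy5 for either channel and the design has 12 arrays, so each column appears to combine a dye swap. Background correction and normalization are not given here, and neither intensities nor depth are known: no filter on dim probes was possible, and the number of arrays limits the precision. The deposited columns have a mean of 0, so a shift common to all probes cannot be seen.

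Of 26503 probes, 22 control spots were left out. The platform annotation gave 1 symbol to 15521 probes, of which 3638 were updated through a RefSeq table (GRCr8), 59 were kept as annotated and the rest were current; 11 member probes of 6 genes had an updated symbol. Probes of a gene were averaged, which left 23549 rows. limma 3.58.1 (R 4.3.3) was fitted to all 6 pairings with group coefficients, 3 residual and 3.66 prior degrees of freedom, with two-sided p-values adjusted by Benjamini-Hochberg over every row, at 0.05. The fit was tested on simulated data.

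Genes named with values were those called, those with the smallest p per family and comparison (2 Adh, 3 Aldh, 5 Cyp and 1 other), genes fixed by name, called or leading pathway genes, and, for genes so named, probes that disagreed in sign by over 0.5 in that comparison; Cyp21a1, Cyp26a1, Cyp4b1 and Cyp4x1 were added after their values were seen. Members and lists were chosen with earlier results of these data known. Alternatives were another column direction, scaling, centring, variance, probe handling, symbol source and leaving out each pairing. Promoters for Aldh2 and 11 other members were not used here.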

Additional observations from a re-analysis of the deposited data

How the results depend on the processing

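No paired analysis was possible because no numbered sample took part in more than 1 pairing. The count of 0 called members was the same in all 5 comparisons under each of these settings: the A/D column turned, pairings scaled to one spread, columns centred on the median, ordinary variance, symbols as annotated, and any 1 pairing left out. In D minus B and A minus B these settings called no row at all, so the count there could not differ from 0. The same held in C minus A, except with A/D turned (1.85% of rows) or ordinary variance (0.0170%). It also held in the interaction, except with ordinary variance (0.0085%). In C minus D, 0.0% to 4.26% of rows were called. With every probe a row, 2 member genes were called in C minus D, Aldh1a2 by 2 probes of opposite direction and Cyp2c22 by 1 probe. The called probes were 2.65% of member probes, against 4.62% of all probes. Alternatives chosen after seeing the data combined settings. With every probe a row and A/D turned, 1 member gene (Aldh1a2) was called in C minus A, where 1.95% of all probes were called. With every probe a row and each pairing left out in turn, 0 to 3 genes were called in C minus D, against 0.0% to 4.68% of all probes. With A/D turned and each other pairing left out, 0 to 1 were called in C minus A (Cyp11b2, without B/C, where 743 rows or 3.16% were called). The cause of these shifts was not tested. The 999 rows called in C minus D became 0 with A/D turned, 440 with one spread, 2 with ordinary variance, and 0 to 918 when a pairing was left out. Of 190 fitted values (38 named genes in 5 comparisons), turning A/D moved 32 by over 1 standard error of the fit and gave 23 the other sign. The 190 include the 38 interaction values, which give no weight to A/D and so could not move. Signal over background is unknown, so which members were too dim to show a change is unknown.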
